A study of Mus musculus with 8 samples.

Results

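The small leucine-rich proteoglycans described here are 10 genes chosen by symbol: Dcn, Bgn, Aspn, Lum, Fmod, Prelp, Kera, Omd, Ogn and Podn. All 10 were present among the 16464 genes of the deposited table, and all 10 passed the filter on low values, which kept 15120 genes. RNA came from the posterior capsule of the knee, the fibrous and synovial tissue behind the joint, of wild type C57BL/6 mice. The first group had 4 libraries from adult male mice of 10 weeks whose knee had been held at 140 degrees by a cast for 2 weeks, begun at 8 weeks of age. The other had 4 libraries labelled naive, also of 10 weeks, and the comparison asks how capsule transcripts differ after joint immobility. Values are normalised read counts, in which each read of a library carries the same weight and the deposited totals lie between 972758 and 1045293. Whether each library came from its own mouse is not labelled, so that p values reflect the spread among the libraries, which may be technical.

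These proteins are secreted into the extracellular matrix, where a curved stack of leucine-rich repeats binds collagen and governs how fibrils grow and space themselves. Most carry chondroitin, dermatan or keratan sulfate chains, and several hold growth factors of the TGF-beta family in the matrix. In joint capsule, tendon and ligament they are products of fibroblasts.

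A cluster of 4 cysteines stands before the repeats and its spacing separates the classes of the family. It is shown as coding sequence from GENCODE release M21, with the cysteine codons in capitals, because its spacing gives the class of each gene. In class I, decorin (Dcn), biglycan (Bgn) and asporin (Aspn), 6 residues lie between the last 2 cysteines:
Dcn: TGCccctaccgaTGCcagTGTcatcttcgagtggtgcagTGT
Bgn: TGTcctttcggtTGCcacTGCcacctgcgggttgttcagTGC
Aspn: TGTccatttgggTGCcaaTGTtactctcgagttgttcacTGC
In class II, lumican (Lum), fibromodulin (Fmod), PRELP, keratocan (Kera) and osteomodulin (Omd), 9 residues lie there:
Lum: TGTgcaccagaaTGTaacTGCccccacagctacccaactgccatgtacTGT
Fmod: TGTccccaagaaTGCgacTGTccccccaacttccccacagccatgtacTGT
Prelp: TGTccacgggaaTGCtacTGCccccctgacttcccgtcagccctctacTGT
Kera: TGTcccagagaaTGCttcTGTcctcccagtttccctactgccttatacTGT
Omd: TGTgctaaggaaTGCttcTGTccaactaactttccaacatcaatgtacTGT
Osteoglycin (Ogn), of class III, has 2 residues between the first 2 cysteines where the other 9 members have 3, and podocan (Podn) has 7 residues in the last gap:
Ogn: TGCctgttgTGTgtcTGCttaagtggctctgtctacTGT
Podn: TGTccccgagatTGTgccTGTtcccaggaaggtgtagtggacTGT
Over whole coding sequences the members run from 35.8% G and C in Omd to 57.5% in Podn, which bears on 1 library described next.

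The libraries held 5956148 to 7381255 recovered reads in the cast group and 1503880 to 6805349 in the naive group. Naive replicate 4 was the shallowest, with 2264 genes at 0 against 487 to 608 in naive replicates 1 to 3. Its level relative to those 3 followed transcript GC content (Spearman rho 0.71 across 11367 genes with a mean of at least 5, which share depth and libraries and are not replicates). Genes with 35 to 40% GC lay at a median log2 difference of -2.22 in it, and genes with 50 to 55% at 0.29. Results for members of low GC are therefore given with and without this library. Across all genes, the limma test on log2(value + 1) called 12.0% at a Benjamini-Hochberg adjusted p of at most 0.05, 984 higher and 826 lower in cast capsules, and 17.7% without naive replicate 4 (1384 higher and 1288 lower). Without cast replicate 3, naive replicate 2 or naive replicate 3 these counts were 512, 569 and 566 higher and 408, 442 and 479 lower, and without cast replicate 2 579 were higher.

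After casting, Lum rose and Prelp fell, and the other 8 members did not pass the test with all 8 libraries. The 2 called members are 2 of 10, read against 12.0% of all genes tested, and 1 rise and 1 fall stand beside 6.51% of genes called higher and 5.46% called lower. In the same 2 of 10 members no cast library overlapped any naive library, against 20.5% of all genes, and without naive replicate 4 the groups were apart in 3 of 10, against 30.6%. The median log2 fold change of the 10 was 0.23, against 0.07 over all genes tested. Without naive replicate 4 Ogn fell too, so that 3 of 10 passed against 17.7% of all genes, with a median of -0.54 against 0.01 over all genes. Each log2 fold change below is the cast mean less the naive mean of log2(value + 1), with its standard error (SE) and adjusted p from limma. In bulk tissue, fewer cells of a type and less RNA per cell cannot be told apart.

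**Figure D1:**
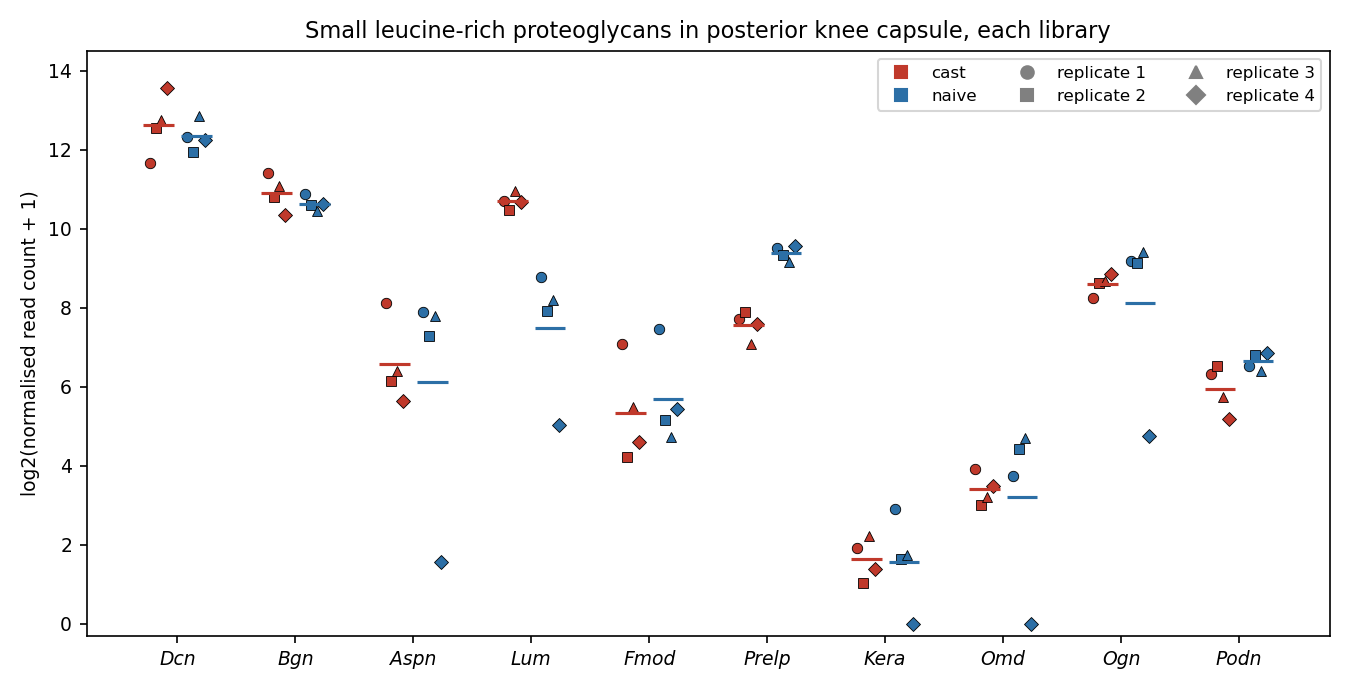
Level of each member in each library as log2(normalised read count + 1), cast libraries in red on the left and naive libraries in blue on the right, with symbols for replicate number and a line at each group mean (n = 4 per group). Lum lies higher in every cast library, Prelp lower, and naive replicate 4 (diamond) lies far below the other naive libraries in Aspn, Lum, Omd and Ogn.

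Lumican binds collagen fibrils and regulates their thickness, and it carries keratan sulfate in the cornea. Lum had 1671, 1421, 1976 and 1643 normalised read counts in cast replicates 1 to 4, against 440.1, 241, 294 and 31.7 in naive replicates 1 to 4. Every cast library was higher than every naive library, and naive replicate 4, with 49 reads, was far under the other naive libraries. The log2 fold change was 3.22 (SE 0.68, 95% confidence interval 1.69 to 4.74, adjusted p = 0.0157), which is 9.31-fold. Without naive replicate 4 it was 2.40 (SE 0.23, interval 1.88 to 2.92, adjusted p = 0.000331), which is 5.28-fold and a smaller value with a narrower interval. The call was lost without cast replicate 3 (log2 fold change 3.14, adjusted p = 0.0520). By edgeR on recovered reads the log2 fold change was 2.73 (adjusted p = 0.0143).

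PRELP, a proline- and arginine-rich family member, binds collagens and heparan sulfate at basement membranes and in cartilage. Prelp had 208, 237, 133 and 192 normalised read counts in cast replicates 1 to 4, against 733, 639, 564 and 752 in naive replicates 1 to 4. The groups were far apart, with the highest cast library under every naive library, and naive replicate 4 lay close to the other 3. The log2 fold change was -1.82 (SE 0.21, interval -2.30 to -1.34, adjusted p = 0.00110), a level 3.53-fold lower in cast capsules. Without naive replicate 4 it was -1.76 (adjusted p = 0.000750). Prelp has 53.8% GC, in the range where that library departed little from the others. An antisense gene, Gm15851, overlaps Prelp in exons, and whether counting used the strand is not given in the sources used here.

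The other class II members did not pass the test. Fibromodulin competes with lumican for a binding site on collagen, and Fmod had 133, 17.5, 43.9 and 23.1 normalised read counts in cast replicates 1 to 4, against 174, 34.8, 25.6 and 42.0 in naive replicates 1 to 4. Replicate 1 was the highest library in both groups and the groups overlapped (log2 fold change -0.35, SE 0.70, adjusted p = 0.783). The interval of -1.93 to 1.22 leaves room for a change of more than 2-fold in either direction. Keratocan, a corneal keratan sulfate proteoglycan also found in tendon, was low in all libraries. Kera had 2.80, 1.05, 3.68 and 1.60 normalised read counts in cast replicates, against 6.48, 2.10 and 2.31 in naive replicates 1 to 3 and 0 in naive replicate 4, where 3 reads would have been worth 1.94 (log2 fold change 0.08, SE 0.55, adjusted p = 0.943). Without naive replicate 4 the log2 fold change of Kera turned to -0.45 (adjusted p = 0.468). Osteomodulin, known from mineralised tissue, was also low, with 14.0, 7.04, 8.18 and 10.3 normalised read counts of Omd in cast replicates, against 12.4, 20.5 and 24.8 in naive replicates 1 to 3 and 0 in naive replicate 4. Omd gave a log2 fold change of 0.19 (SE 0.89, adjusted p = 0.916) with all libraries and -0.88 (SE 0.28, adjusted p = 0.0596) without naive replicate 4. Floors of 3 reads cover counting error only.

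Class I held the most abundant members, and none of the 3 passed the test. Decorin coats the collagen fibril and binds TGF-beta. Dcn had 3247, 5957, 6823 and 11958 normalised read counts in cast replicates 1 to 4, against 5084, 3911, 7340 and 4869 in naive replicates 1 to 4. The lowest and the highest of the 8 libraries were both cast libraries (log2 fold change 0.29, SE 0.44, interval -0.69 to 1.27, adjusted p = 0.715). Without naive replicate 4 the estimate for Dcn was 0.26 (adjusted p = 0.762), and without cast replicate 4 it was -0.02. Biglycan also binds collagen and, when soluble, engages Toll-like receptors. Bgn had 2706, 1775, 2175 and 1289.7 normalised read counts in cast replicates, against 1872, 1550.5, 1381 and 1568 in naive replicates (log2 fold change 0.27, SE 0.28, interval -0.34 to 0.89, adjusted p = 0.573). The cast libraries spread on both sides of the naive ones.

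Asporin carries a run of aspartates in place of a glycosaminoglycan chain and competes with decorin for collagen. Aspn had 275, 70.3, 83.2 and 48.5 normalised read counts in cast replicates 1 to 4, against 237, 155, 219 and 1.94 in naive replicates 1 to 4. Cast replicate 1 was the highest of all 8 libraries and naive replicate 4, with 3 reads, the lowest. The log2 fold change was 0.44 (SE 1.28, adjusted p = 0.859) and turned to -1.08 (SE 0.49, interval -2.18 to 0.02, adjusted p = 0.160) without naive replicate 4. An exon of the antisense gene Cenpp overlaps Aspn, and Cenpp itself averaged 1.05 in cast and 0.283 in naive capsules.

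Osteoglycin, or mimecan, takes part in collagen fibril formation, and the direction of its gene depended on 1 library. Ogn had 304, 391, 407 and 463 normalised read counts in cast replicates 1 to 4, against 575, 556, 678 and 25.9 in naive replicates 1 to 4. All cast libraries lay under naive replicates 1 to 3 and over naive replicate 4, which had 40 reads. With all libraries the log2 fold change was 0.49 (SE 0.90, adjusted p = 0.767), and without naive replicate 4 it was -0.63 (SE 0.18, interval -1.03 to -0.23, adjusted p = 0.0375), 1.55-fold lower in cast capsules. With the GC trend removed from each library and all 8 kept, it was -0.08 (adjusted p = 0.924). Podocan, which restrains smooth muscle cell growth in mouse artery, was represented by 78.4, 91.0, 51.9 and 35.3 normalised read counts of Podn in cast replicates, against 91.2, 111, 82.8 and 114 in naive replicates. These groups overlapped in cast replicate 2 (log2 fold change -0.71, SE 0.28, interval -1.34 to -0.07, adjusted p = 0.147).

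**Figure D2:**
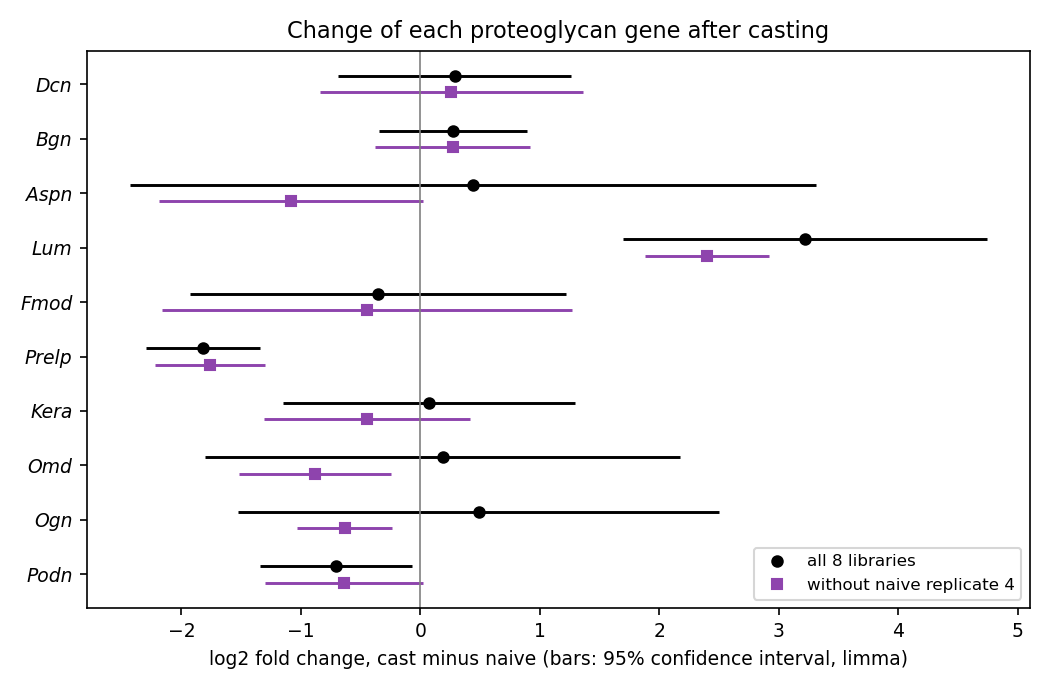
Log2 fold change of each member, cast minus naive, with 95% confidence intervals from limma, for all 8 libraries (black circles) and without naive replicate 4 (purple squares). Lum and Prelp stay on their side of 0 in both, whereas Aspn, Kera, Omd and Ogn move across 0 when naive replicate 4 is left out.

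Transcript GC content was available for 10 of 10 members, from the longest coding transcript. It was 34.3% in Aspn, 36.1% in Omd, 36.3% in Ogn, 40.7% in Kera, 41.9% in Lum, 42.4% in Dcn, 52.5% in Bgn, 53.7% in Fmod, 53.8% in Prelp and 57.2% in Podn. The log2 level of naive replicate 4 minus the mean of naive replicates 1 to 3 was -6.10 for Aspn, -4.48 for Ogn, -4.28 for Omd, -3.27 for Lum and -2.09 for Kera. For the 4 members of higher GC it ran from -0.35 (Fmod) to 0.27 (Podn). The shortfall in that library was thus deepest in the members of lowest GC. Lum and Dcn had nearly the same GC content, but Dcn differed by -0.11 in that library where Lum differed by -3.27. Genes of 40 to 45% GC had a median of -1.12, with 90% of them between -3.08 and 0.18, so Dcn lay inside this range and Lum just beyond it. With the GC trend removed, Lum had a log2 fold change of 2.90 (adjusted p = 0.00208) and Prelp -1.74 (adjusted p = 0.000534).

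**Figure D3:**
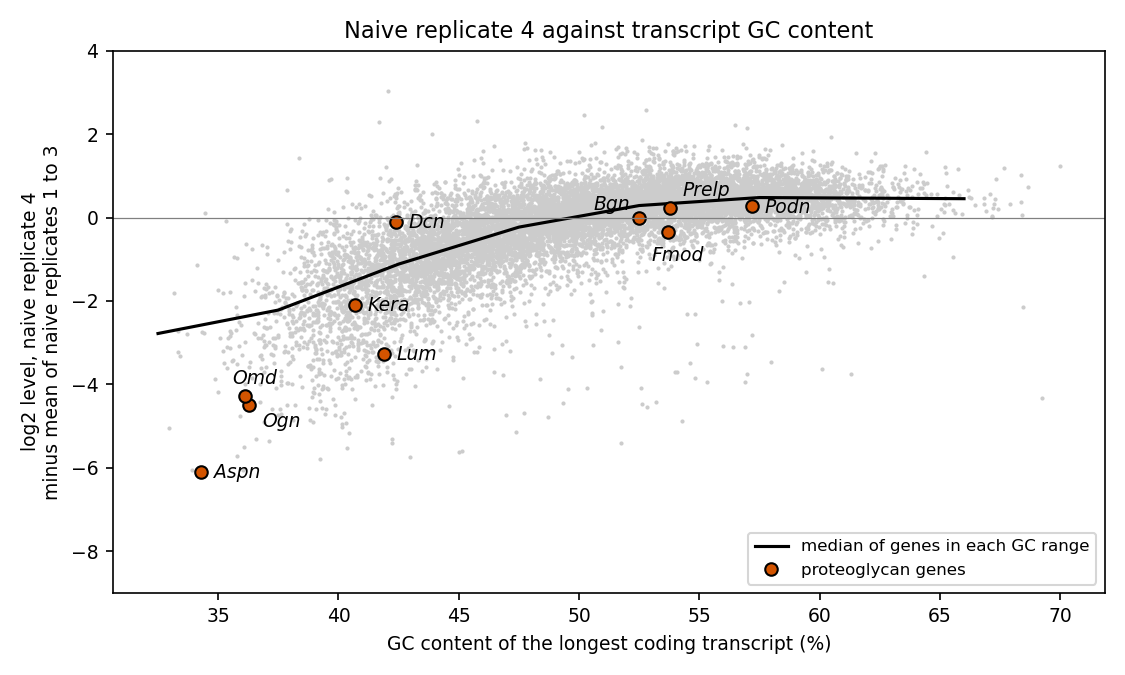
GC content of the longest coding transcript in percent against the log2 level of naive replicate 4 minus the mean of naive replicates 1 to 3, for genes with a mean value of at least 5 (grey), the 10 members (orange) and the median of each GC range (line; members with lower means are drawn too). Aspn, Ogn and Omd lie at the lower left, at -6.10, -4.48 and -4.28, and Dcn lies near 0 although its GC content is close to that of Lum.

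Levels between genes were compared per kilobase of the longest coding transcript. On that scale Dcn averaged 3980 ± 2072 in cast and 3015 ± 826 in naive capsules (mean ± SD, n = 4 each). Bgn averaged 821 ± 248 in cast and 659 ± 84.4 in naive capsules. Lum averaged 685 ± 93.3 in cast and 103 ± 69.1 in naive capsules, so that it stood close under Bgn after casting and far under it in naive tissue. Ogn averaged 152 ± 25.8 in cast and 179 ± 114 in naive capsules, and Prelp 53.3 ± 12.1 in cast and 186 ± 24.1 in naive capsules. By these means Prelp stood after Ogn and close to Aspn in cast tissue, and beside Ogn in naive tissue. The closeness to Aspn rested on cast replicate 1. Aspn had 118, 30.2, 35.7 and 20.8 in cast replicates 1 to 4, against 57.5, 65.5, 36.9 and 53.2 for Prelp. Ogn was above Prelp in each of naive replicates 1 to 3 (224, 217 and 264 for Ogn, against 203, 177 and 156 for Prelp) and far under it in naive replicate 4 (10.1 against 208). Aspn, Podn, Fmod, Omd and Kera averaged between 1.001 and 51.2 in cast capsules and between 1.19 and 65.8 in naive capsules.

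**Figure D4:**
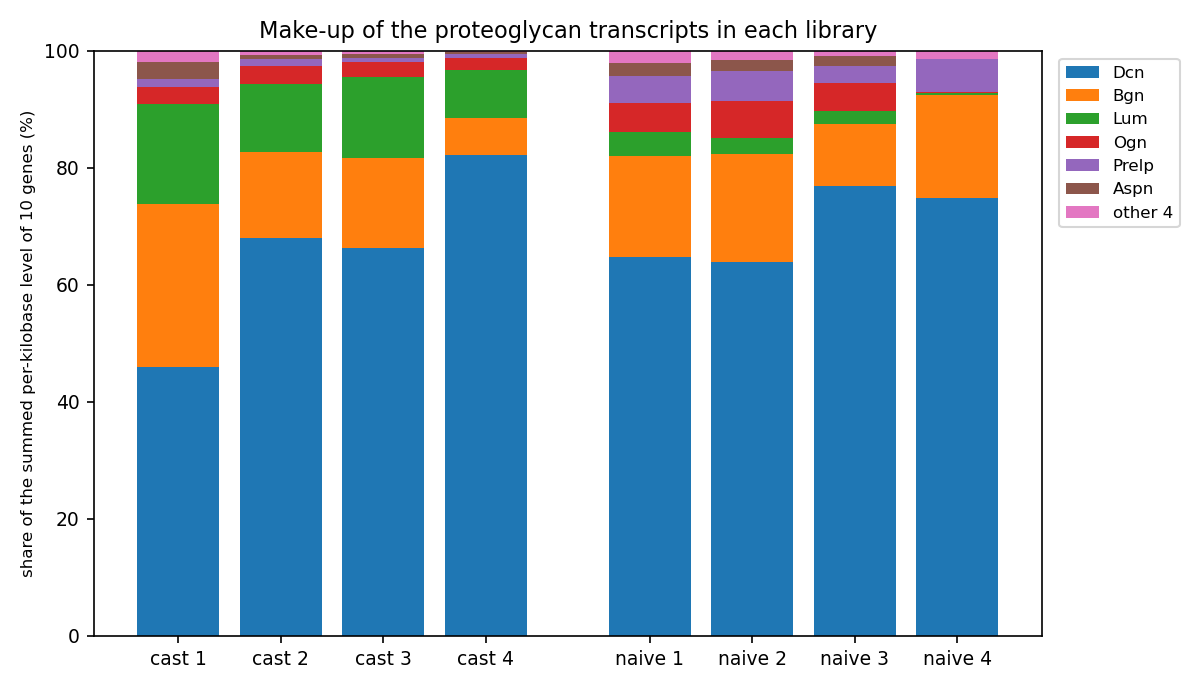
Share of each member in the summed per-kilobase level of the 10 genes, in percent, for each cast library (left) and naive library (right). Dcn makes up 46.0 to 82.1% in cast and 63.9 to 76.9% in naive libraries, and the share of Lum is wider in every cast library than in any naive library.

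As a share of the summed per-kilobase level of the 10 genes, Lum was 17.0, 11.6, 13.8 and 8.10% in cast replicates 1 to 4, against 4.03, 2.83, 2.21 and 0.350% in naive replicates 1 to 4. The share of Prelp was 1.43, 1.31, 0.630 and 0.642% in cast replicates, against 4.54, 5.08, 2.88 and 5.62% in naive replicates. Neither pair of ranges overlapped. The 10 genes together took 0.880 to 1.59% of all normalised read counts in cast libraries and 0.691 to 1.06% in naive libraries, and these ranges overlapped.

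Ratios of 2 members within a library do not depend on how libraries were scaled, and are given without a test. Lum over Bgn was 0.618 to 1.27 in cast libraries and 0.0202 to 0.235 in naive libraries. Lum over Dcn was 0.137 to 0.515 in cast libraries and 0.00651 to 0.0866 in naive libraries. Naive replicate 4 set the lower end of both naive ranges. In naive replicates 1 to 3 Lum over Bgn was 0.156 to 0.235 and Lum over Dcn 0.0400 to 0.0866. Prelp over Bgn, a pair of similar GC content, was 0.0613 to 0.149 in cast libraries and 0.391 to 0.479 in naive libraries, where naive replicate 4 set the upper end and naive replicates 1 to 3 reached 0.412. None of these 3 ratios overlapped between groups. Lum over Ogn, both genes of low GC, was 3.55 to 5.50 in cast libraries and 0.433 to 1.23 in naive libraries, again without overlap. Naive replicate 4 set the upper naive end, and naive replicates 1 to 3 reached 0.765. Bgn over Dcn, the balance of the major class I genes, was 0.108 to 0.833 in cast libraries and 0.188 to 0.396 in naive libraries, and overlapped.

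Most of these genes lie in 3 clusters of the genome (GENCODE M21, build GRCm38, the assembly of mm10), and with all 8 libraries neighbours in a cluster did not share a call. On chromosome 10, Dcn (97479609 to 97518143), Lum (97565128 to 97572703) and Kera (97606879 to 97613692) lie on the plus strand with gaps of 47.0 and 34.2 kb. Only the middle gene, Lum, passed the test among these 3. On chromosome 1, Prelp (133910304 to 133921414, minus strand) lies 115.8 kb from Fmod (134037254 to 134048277, plus strand), which did not pass. On chromosome 13, Ecm2 (49504810 to 49532789), Aspn (49544443 to 49567565), Omd (49582462 to 49592822) and Ogn (49608046 to 49624501) lie in a row on the plus strand. Ecm2, a matrix protein with leucine-rich repeats related to decorin, was called lower there and is described next. Both Ecm2 (log2 fold change -2.35, adjusted p = 0.000166) and Ogn (-0.63, adjusted p = 0.0375) of this cluster were called lower without naive replicate 4. Bgn (X, 73483602 to 73495933, plus strand) and Podn (4, 108014791 to 108096445, minus strand) lie apart from the clusters.

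Of 8 further family genes, 6 were tested, 2 fell and 4 did not pass, read against 5.46% of all genes called lower. The median log2 fold change of the 6 was -0.29. Ecm2 had 46.6, 54.4, 56.7 and 79.9 normalised read counts in cast replicates 1 to 4, against 266, 282, 368 and 157 in naive replicates 1 to 4, with every cast library lower (log2 fold change -2.12, SE 0.27, adjusted p = 0.00171). Chad, chondroadherin of cartilage, had 11.04, 3.90, 5.32 and 4.27 normalised read counts in cast replicates, against 31.5, 26.3, 31.7 and 62.7 in naive replicates (log2 fold change -2.47, SE 0.35, adjusted p = 0.00283). Both groups of libraries were again apart. Epyc, the epiphycan gene next to Kera, averaged 4.18 ± 1.56 in cast and 1.73 ± 0.769 in naive capsules (log2 fold change 0.92, adjusted p = 0.0749), and Podnl1, a podocan-like gene, 2.46 ± 1.47 in cast and 0.553 ± 0.492 in naive capsules (log2 fold change 1.11, adjusted p = 0.0746).

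Enzymes that build the sulfated chains of these proteins were called at a share close to the 12.0% of all genes. Of 22 chondroitin and dermatan sulfate enzymes tested, Csgalnact1 rose, Ust fell and 20 did not pass, with a median log2 fold change of 0.01. Csgalnact1, which starts the chondroitin chain, averaged 58.0 ± 9.74 in cast and 23.4 ± 3.25 in naive capsules (log2 fold change 1.27, SE 0.18, adjusted p = 0.00277). Ust, an uronyl sulfotransferase, averaged 28.9 ± 4.43 in cast and 50.3 ± 6.24 in naive capsules (log2 fold change -0.78, adjusted p = 0.0189). Ust no longer passed without cast replicate 3, naive replicate 2 or naive replicate 3 (adjusted p = 0.0671, 0.0634 and 0.0526). Of 10 keratan sulfate enzymes and sulfate suppliers tested, Chst1 fell and 9 did not pass (median -0.13). Chst1, the sulfotransferase acting on galactose of keratan sulfate, had 6.92, 14.2, 5.59 and 12.8 normalised read counts in cast replicates, against 33.9, 61.5, 53.2 and 97.0 in naive replicates (log2 fold change -2.51, SE 0.37, adjusted p = 0.00314).

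Of 11 collagens that bind these proteoglycans, Col12a1 rose, Col2a1 fell and 9 did not pass, with a median of -0.35. Over all genes 6.51% were called higher and 5.46% lower. The main fibril collagens varied widely. Col1a1 averaged 4154 ± 3114 in cast and 4068 ± 1857 in naive capsules (log2 fold change -0.20, adjusted p = 0.867), and Col3a1 14153 ± 5253 in cast and 14186 ± 5798 in naive capsules (adjusted p = 0.997). Col12a1, a collagen on the fibril surface, averaged 450 ± 423 in cast and 53.7 ± 41.6 in naive capsules (log2 fold change 2.85, SE 0.65, adjusted p = 0.0219). Col12a1 no longer passed without cast replicate 3, naive replicate 2 or naive replicate 3 (adjusted p = 0.0690, 0.0573 and 0.0639). Col2a1, the collagen of cartilage, averaged 1.07 ± 0.809 in cast and 8.72 ± 3.95 in naive capsules (log2 fold change -2.22, adjusted p = 0.00573).

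Of 14 proteases that can cleave these proteoglycans or their relatives, 7 rose, 1 fell and 6 did not pass. Over all genes 6.51% were called higher and 5.46% lower. The median log2 fold change of the proteases was 1.25, against 0.07 over all genes. Leaving out 1 library at a time gave 6 to 9 proteases higher and 0 to 1 lower. The 7 that rose with all libraries were Mmp3, Mmp8, Mmp9, Mmp12, Mmp13, Adamts4 and Gzmb. Gzmb was low, with 0.989, 1.20, 1.23 and 1.87 normalised read counts in cast replicates, against 0, 0, 0.165 and 0 in naive replicates. Mmp13, collagenase 3, which cleaves fibromodulin and biglycan, had 2922, 398, 2229 and 478 normalised read counts in cast replicates, against 3.47, 1.77, 0.827 and 12.9 in naive replicates (log2 fold change 7.97, SE 0.78, adjusted p = 0.000422). Mmp3, stromelysin 1, had 304, 1045, 2333 and 1525 normalised read counts in cast replicates, against 68.1, 30.2, 24.5 and 27.8 in naive replicates (log2 fold change 4.86, SE 0.58, adjusted p = 0.00112). Mmp8 and Mmp9 also stand in the list of neutrophil markers, of which 11 of 12 were higher in cast capsules. Htra1, a serine protease that degrades decorin and biglycan, averaged 155 ± 51.9 in cast and 307 ± 65.6 in naive capsules (log2 fold change -1.02, adjusted p = 0.0307). Htra1 no longer passed without cast replicates 2, 3 or 4 or naive replicates 1 or 2 (adjusted p = 0.0892, 0.0717, 0.0742, 0.0692 and 0.0652). Adamts5, an aggrecanase, averaged 371 ± 103 in cast and 333 ± 72.2 in naive capsules (adjusted p = 0.777).

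Growth factors and receptors that these proteoglycans bind are read against the same 12.0% of all genes. Of 11 growth factor genes tested, Wisp1 rose, Bmp2 and Ctgf fell and 8 did not pass (median -0.20). Tgfb1, Tgfb2 and Tgfb3 had adjusted p values of 0.742, 0.434 and 0.880. Ctgf, connective tissue growth factor, which decorin binds, averaged 207 ± 120 in cast and 668 ± 190.1 in naive capsules (log2 fold change -1.82, SE 0.40, adjusted p = 0.0182). Its adjusted p was 0.0591, 0.0571 and 0.0545 without cast replicate 3, naive replicate 2 and naive replicate 3. Wisp1 averaged 20.2 ± 12.8 in cast and 3.41 ± 0.864 in naive capsules (log2 fold change 2.03, adjusted p = 0.0226), and Bmp2 7.11 ± 1.87 in cast and 15.6 ± 4.33 in naive capsules (log2 fold change -1.02, adjusted p = 0.0304). Wisp1 no longer passed without cast replicates 1 or 3 or naive replicates 2 or 3 (adjusted p between 0.0546 and 0.0709). Bmp2 no longer passed without cast replicates 2, 3 or 4 or naive replicates 2 or 3 (adjusted p between 0.0754 and 0.0903), nor with the replicate number as a block (adjusted p = 0.0663). Of 16 receptor genes, Itga2, a collagen receptor subunit, fell and 15 did not pass (median 0.20). Itga2 averaged 13.7 ± 4.80 in cast and 28.2 ± 7.49 in naive capsules (log2 fold change -1.02, adjusted p = 0.0430), a call lost without cast replicates 1, 2 or 4 or naive replicates 1, 2 or 3 (adjusted p between 0.0780 and 0.115). The Toll-like receptor genes Tlr2 and Tlr4 had adjusted p values of 0.313 and 0.340.

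**Figure D5:**
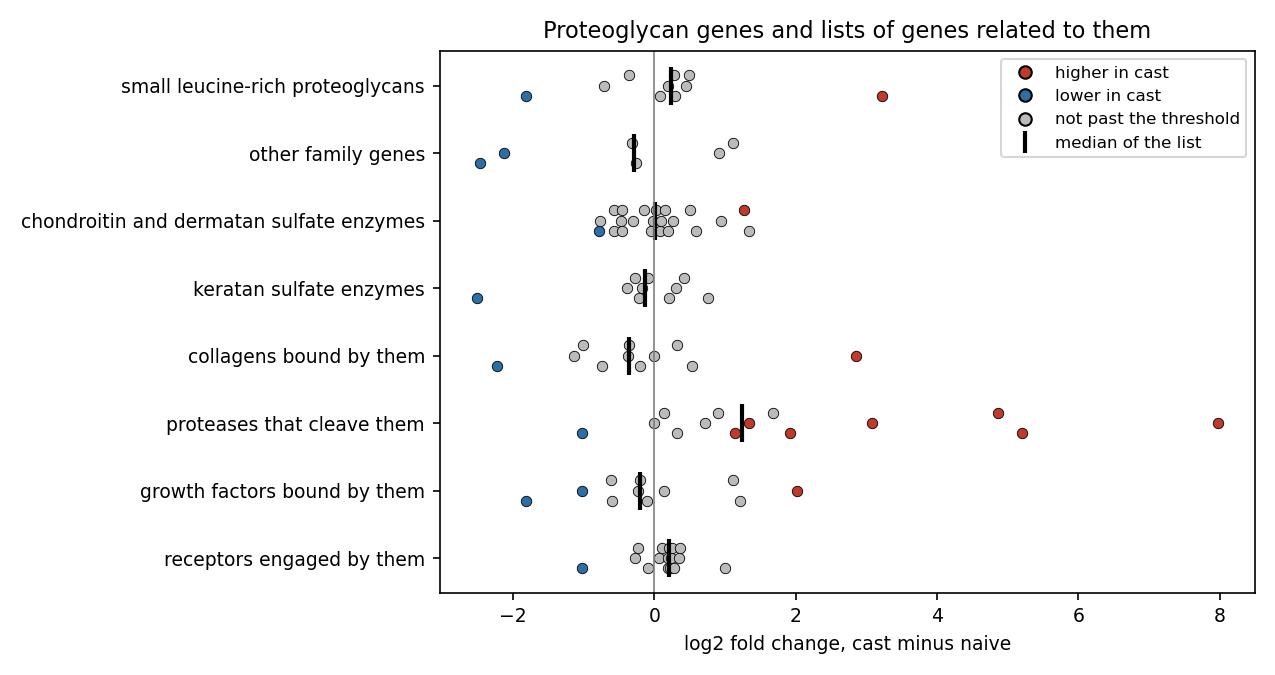
Log2 fold change, cast minus naive, of each tested gene of the proteoglycan family and of 6 lists of related genes, with called genes in red (higher in cast) or blue (lower in cast), other genes in grey and a bar at the median of each list. The proteases reach from -1.02 (Htra1) to 7.97 (Mmp13), while the medians of the other lists lie between -0.35 and 0.23.

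Markers of some cell types differed between the groups beside these results, and those of others did not. Counts of called markers are read against 6.51% of all genes called higher and 5.46% called lower. The summed level of 14 fibroblast markers was 6682 to 10082 in cast and 6631 to 9566 in naive libraries, so that its ranges overlapped. Of these markers 1 was higher and 4 lower. The sum does not show an unchanged fibroblast content, because abundant markers moved in opposite directions. Cxcl12 averaged 2444 in cast and 347 in naive capsules, and Prg4, which did not pass, 1914 in cast and 4312 in naive capsules. The summed level of 12 neutrophil markers was 1227 to 7268 in cast and 51.8 to 115 in naive libraries. Of 12 skeletal muscle markers 6 fell, with a summed level of 16.3 to 390.3 in cast and 116 to 2806 in naive libraries, and naive replicate 4 was the lowest naive library. All 12 fell without naive replicate 4, and 9 without cast replicate 1. Without cast replicates 2 or 3 or naive replicates 1, 2 or 3 the count was 2, 0, 3, 2 and 2. Of 10 fat cell markers Plin1, Plin4, Lep and Pparg fell, but 2 passed without cast replicate 1 and 0 without cast replicate 3, naive replicate 2 or naive replicate 3, where the adjusted p of the 4 ran up to 0.0985. Of 10 osteoblast markers Runx2, Ibsp and Spp1 rose and Bglap and Bglap2 fell. Their list summed to 179 to 391 in cast and 38.8 to 168 in naive libraries, which did not overlap. Spp1 alone had 148, 68.8, 194 and 61.9 normalised read counts in cast replicates, against 14.2, 10.8, 5.29 and 8.41 in naive replicates. Each of its cast values exceeded the distance between the summed ranges, so that their separation depended on Spp1. Ibsp no longer passed without cast replicates 1 or 3 or naive replicate 3. Bglap no longer passed without cast replicates 2, 3 or 4 or naive replicates 1 or 2, and Bglap2 no longer passed without any 1 of the libraries other than naive replicate 4. Of 11 erythroid markers tested 10 rose, with a summed level of 6079 to 29832 in cast and 1732 to 3000.0 in naive libraries. Leaving out 1 library at a time gave 8 to 10. Hbb-bt and Hbb-b2 had the same log2 fold change (2.36) and the same adjusted p (0.0142 by limma), so they may not be separate measurements. Of 12 macrophage markers Folr2 fell and 11 did not pass, and Folr2 no longer passed without cast replicate 3 (adjusted p = 0.0552). Of 10 endothelial markers 0 passed by limma, with 1 at an unadjusted p under 0.05, 0 by edgeR and 1 by DESeq2. Of 8 cartilage markers tested Matn3 rose, Col2a1 and Chad fell and 5 did not pass. The cartilage list summed to 35.7 to 238 in cast and 67.6 to 107 in naive libraries, which overlapped. Matn3 no longer passed without cast replicate 3 (adjusted p = 0.0508 by limma). Of 10 tendon and ligament markers Cilp2 (log2 fold change -3.95, adjusted p = 0.00111) and Egr1 fell and 8 did not pass. Egr1 no longer passed without cast replicates 1 or 3 or naive replicate 3. This list summed to 1089 to 1997 in cast and 1474 to 2455 in naive libraries, which overlapped. Of 10 Schwann cell markers Egr2 fell and 9 did not pass. The part of these shifts in the levels of Lum and Prelp was not tested.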

How the data were processed

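Per the labels' protocols, ribosomal RNA was depleted from 200 ng of total RNA and directional libraries were read as 150-nt pairs. Trimming with Trimmomatic 0.38 and RSEM with Bowtie2 on human (hg38) transcripts are named in that protocol, whereas the submitters' processing notes give Trimmomatic 0.36, RSEM, edgeR and mm10. The symbols are those of mouse genes. No other version and no annotation is named. The deposited table holds a signal, the authors' normalised read count, for each gene in each library. In each library 100% of values were whole multiples, within 0.01 of a read, of the weight of 1 read, so whole reads were recovered, and they were 5956148 to 7381255 per cast library and 1503880 to 6805349 per naive library.

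Values were tested as log2(value + 1) for genes with a mean of at least 0.5 by limma-trend with Benjamini-Hochberg adjustment over all genes. GC content, length and coordinates came from GENCODE M21 for 95.9% of genes. The members and lists were chosen with earlier results of these data known. Named genes were all members, from each other list the called genes (the 5 of smallest p where more passed), and 14 genes named whatever their test; marker genes are given as list counts. Alternatives are in the closing section. The test was checked on simulated data drawn without the GC-related shift of naive replicate 4, so that check does not cover this shift. Fits used limma 3.58.1, edgeR 4.0.16 and DESeq2 1.42.0 under R 4.3.3, with Python 3.11.15 for the rest.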

Additional observations from a re-analysis of the deposited data

Results flagged for a closer look

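In groups of 4 libraries, 9 of 144 groups of the named genes held 1 library set apart from the other 3 by a gap above the 95% critical value of Dixon's test, and chance alone flags about 1 in 20. Among the members these were Aspn and Ogn in naive libraries, both for a low naive replicate 4 (1.94 and 25.9 normalised read counts). The same library was set apart, also low, for Tlr4 (13.6) and for the muscle genes Mb (1.94) and Pvalb (2.59). Cast replicate 1 was set apart as high for Mfap5, a microfibril gene (79.4), and for the tendon gene Tnmd (8.73). Cast replicate 2 was high for Egr2 (5.10), and naive replicate 3 for Gzmb (0.165, where the other naive libraries had 0).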

How the results depend on the processing

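Lum stayed higher and Prelp lower in cast capsules under every alternative that was run. Lum passed the threshold in each except without cast replicate 3 (3.14, adjusted p = 0.0520 by limma), and Prelp passed in each. Over the 10 members, 195 of the recomputed fold changes kept their direction and call, 41 turned in sign, of which 2 also came to pass (Ogn, both without naive replicate 4), 3 came to pass in the same direction and 1 no longer passed. For the other named genes 1333 kept both, 28 turned, 13 came to pass and 111 no longer passed. Fold changes could not move without a filter, with a stricter filter, without the limma trend or with the replicate block. There only the call could change, so the kept directions in these counts are partly fixed in advance. The limits are the depth of naive replicate 4 and the link of that library to GC content. Omd and Kera had 0 reads in that library, where 1 read was worth 0.647. Omd had 12.4, 20.5 and 24.8 normalised read counts in naive replicates 1 to 3, and the part of depth in its 0 was not tested. The direction of the 4 members Aspn, Ogn, Omd and Kera was therefore not settled by these data. Dcn and Fmod also turned in sign under some alternatives, and their direction was not settled either. The causes of the changes given here were not tested.

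With the GC trend removed the log2 fold change was -0.0055 for Dcn, -0.21 for Aspn, -0.081 for Ogn, -0.39 for Omd and -0.29 for Kera, and also 0.045 for Col3a1, -0.043 for Tnmd and -0.099 for Adamts5. These 8 values were the same with the replicate number as a block. With the GC trend removed and naive replicate 4 left out, an alternative chosen after seeing the data, they were -1.07 for Aspn, -0.63 for Ogn (adjusted p = 0.0479 by limma), -0.88 for Omd, -0.44 for Kera and -0.035 for Adamts5, with 2 members and 1418 genes lower. Array weights gave -1.22 for Aspn, -0.51 for Ogn, -0.93 for Omd, -0.36 for Kera and 0.069 for Col3a1, with 2168 genes higher and 1817 lower. By edgeR on recovered reads the values were -0.38 for Aspn, -0.24 for Ogn, -0.65 for Omd, -0.43 for Kera, 0.086 for Tgfb3, 0.035 for Col1a1 and 0.0013 for Col3a1, with 1102 genes higher and 937 lower. By DESeq2 they were -0.36, -0.23, -0.57 and -0.37 for Aspn, Ogn, Omd and Kera, 0.072 for Tgfb3 and 0.033 for Col1a1, with 1290 genes lower. A pseudocount of 5 gave -0.13 for Omd and -0.035 for Kera. Quantile normalisation gave -0.031 for Omd, -0.22 for Kera and 0.53 for Col3a1, and turned the split of calls to 807 higher and 995 lower. Scaling without the muscle, erythroid and neutrophil markers gave 0.023 for Col3a1.

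With the level of muscle markers as a covariate, 4 members were higher (Lum, Aspn at 4.76, Ogn at 3.08 and Omd at 3.10, with adjusted p of 0.0134, 0.0436 and 0.0186 by limma for the last 3), and 2576 genes were higher and 1259 lower. Fmod was then 0.68, Tgfb1 -0.26, Tgfb2 0.21, Tgfb3 0.0011, Col1a1 0.12 and Col3a1 0.041. The muscle marker level was 1.12 to 3.91 in cast libraries, 6.16 to 6.93 in naive replicates 1 to 3 and 2.93 in naive replicate 4. Among naive libraries only naive replicate 4 lay within the cast range, so this fit leans heavily on that library. Aspn, Ogn and Omd were far lower there than in the other naive libraries (-6.10, -4.48 and -4.28). Their calls in this fit cannot be told apart from that shortfall.

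Leaving out 1 library at a time gave 512 to 1384 genes higher and 408 to 1288 lower, 0 to 1 members higher and 1 to 2 lower. The fold change ranged from -0.020 to 0.61 for Dcn, 2.40 to 3.65 for Lum, -0.93 to 0.23 for Fmod, -1.08 to 1.03 for Aspn, -0.63 to 0.92 for Ogn, -0.88 to 0.68 for Omd and -0.45 to 0.52 for Kera. It ranged from -0.48 to 0.17 for Tgfb3, -0.66 to 0.34 for Col1a1, -0.26 to 0.31 for Col3a1 and -0.031 to 0.35 for Adamts5.

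Cast and naive libraries share replicate numbers. The deviations of same-numbered libraries from their group means correlated at 0.080, 0.035, -0.057 and -0.021. Those of libraries with different numbers correlated at -0.234 to 0.234. No pairing by number was visible in these values, which cannot exclude one. With the number as a replicate block 782 genes were higher and 589 lower, and Lum (adjusted p = 0.0246) and Prelp (adjusted p = 0.00572) still passed by limma.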

Other observations

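Fibroblast genes outside the proteoglycan family moved in both directions. Of 14 fibroblast markers, Cxcl12 rose in cast capsules, and Mfap5, Cd34, Clic5 and Htra1 fell. Over all genes 6.51% were called higher and 5.46% lower. Mfap5 no longer passed without cast replicate 3 (adjusted p = 0.0531 by limma) or with the muscle marker level as a covariate (adjusted p = 0.0953). Clic5, a marker of lining fibroblasts, had 50.9, 88.3, 39.8 and 74.8 normalised read counts in cast replicates, against 417, 786, 611 and 413 in naive replicates (log2 fold change -3.13, adjusted p = 0.000398 by limma). Prg4, the lubricin gene of the joint lining, had 1768, 3126, 1378 and 1382 in cast replicates, against 4439, 5104, 5315 and 2391 in naive replicates. It did not pass with all libraries (log2 fold change -1.19, adjusted p = 0.0706) and did without naive replicate 4 (-1.45, adjusted p = 0.0178). Ecm2 over its chromosome 13 neighbour Ogn was 0.139 to 0.172 in cast libraries and 0.462 to 0.543 in naive replicates 1 to 3, and 6.08 in naive replicate 4.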
